A study of Homo sapiens with 3 samples.

Results

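The promoter contacts of the cytosolic ribosomal protein (RP) genes were examined in hESC-CM, cardiomyocytes made from human embryonic stem cells. Members were the protein-coding genes whose symbol is RPL or RPS followed by a number, together with RPSA, RPLP0, RPLP1 and RPLP2, without the RPS6K kinases and without RPL23A, as annotated in GENCODE release 44 lifted to GRCh37. There were 90 such genes. Of these, 45 encode large subunit proteins, 31 encode small subunit proteins, 10 are paralogues such as RPL3L, and 4 are readthrough genes or the RPS19 binding protein gene RPS19BP1. A promoter fragment was a HindIII fragment that was listed first in a deposited contact and that held a transcript start of a member. That start need not be the canonical one, the main annotated start of the gene. The only fragments of RPL17, RPL37, RPL39L and RPLP2, among others, held another start and not the canonical one. The 90 genes gave 85 promoter fragments, of 19075 promoter fragments in all and 14036 that held a protein-coding start.

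The study mapped long-range contacts by promoter capture Hi-C, in which chromatin is cross-linked, cut with HindIII and ligated, and ligation products that contain a promoter fragment are pulled out with RNA baits and sequenced. All 3 samples were biological replicates of hESC-CM, made from the single line WA09 (H9) by stepwise differentiation medium and enriched for cardiomyocytes in lactate medium without glucose. No control cell type and no treated group were among these samples, so only genes can be compared here, not cell states. Each contact carries a CHiCAGO score, which weighs the observed read pairs against the number predicted from distance and technical noise, and contacts start at a score of 5.

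The 3 replicates listed 112473, 109731 and 110740 contacts, with median scores of 6.63, 6.64 and 6.65, so no replicate stood apart. Calls made by the authors on the merged replicates numbered 152757. The cardiomyocyte label could not be checked against expression, because contacts do not measure it. The promoter fragments of the sarcomere genes MYH6, MYH7 and TNNT2 had 35, 27 and 5 contacts. Nothing in the sources used here says which fragments were baited. A fragment not listed may have been absent from the baits, absent from the genome of the cells, or present without a contact of score 5.

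Ribosomal proteins are made in every cell and are assembled with ribosomal RNA into the small subunit, which reads the messenger RNA, and the large subunit, which forms peptide bonds. Their messenger RNAs usually begin with a cytosine and a run of pyrimidines, the terminal oligopyrimidine (TOP) tract, through which growth signalling controls their translation. Many RP genes also carry small nucleolar RNA (snoRNA) genes in their introns. Loss of 1 copy of several RP genes causes Diamond-Blackfan anaemia, an inherited failure of red cell production that can come with heart malformations. The cells examined here were not of that disease.

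The starts of 8 members on which results below turn are given to show where on each promoter fragment transcription begins and what the family shares. Each window runs from 40 bases before the annotated start to 20 bases from it, 5′ to 3′ on the strand of the gene, read from GRCh37. Capitals mark the longest stretch of C and T counted from a C at 5 bases or less from the annotated start, with 5 or more bases. C or T can also precede the marked stretch, as in RPL29 and RPS19.

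RPL22, chr1:6259636-6259695, minus strand: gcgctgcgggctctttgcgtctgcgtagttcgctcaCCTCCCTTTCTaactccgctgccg
RPL28, chr19:55897260-55897319, plus strand: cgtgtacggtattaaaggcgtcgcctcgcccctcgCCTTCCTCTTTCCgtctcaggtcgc
RPS27, chr1:153963198-153963257, plus strand: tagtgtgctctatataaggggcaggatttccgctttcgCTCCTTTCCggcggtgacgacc
RPL29, chr3:52029892-52029951, minus strand: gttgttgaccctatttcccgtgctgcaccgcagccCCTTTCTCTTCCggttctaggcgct
RPL10, chrX:153626678-153626737, plus strand: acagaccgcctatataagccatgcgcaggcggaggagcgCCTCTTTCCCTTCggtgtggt
RPS19, chr19:42364285-42364344, plus strand: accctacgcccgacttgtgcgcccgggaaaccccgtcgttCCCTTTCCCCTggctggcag
RPL5, chr1:93297557-93297616, plus strand: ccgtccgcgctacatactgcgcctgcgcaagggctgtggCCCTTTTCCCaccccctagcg
RPL11, chr1:24018256-24018315, plus strand: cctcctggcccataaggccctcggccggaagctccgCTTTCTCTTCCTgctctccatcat

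A TOP-like tract in this sense was found in 73 of the 90 canonical starts of members (81.1%), against 4338 of 19881 protein-coding starts (21.8%). With a C required at the annotated start itself and C or T in the next 4 bases, whether or not the run began earlier, the shares were 66.7% (60 of 90) and 4.59% (913 of 19881). The letters describe the annotated start only and do not show use of the tract. Over the 300 bases from 250 before to 50 after the start, the median ratio of observed to expected CpG was 0.903 for members and 0.777 for all protein-coding starts, while median GC content was 60.0% and 63.7%.

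A promoter fragment was found for 75 of the 90 genes, 83.3% of them, beside 77.0% of the 20163 protein-coding genes examined. It was found for 36 of 45 large subunit genes, 29 of 31 small subunit genes and 7 of 10 paralogues. RPL8, RPL19, RPL32, RPL38 and RPL39 appeared only as the partner of another promoter. Their partners were called in 1 replicate each, apart from the contact of RPL38 with the BTBD17 promoter, which scored 5.91 in replicate 1 and 7.22 in replicate 3. Genes without a listed fragment in the 3 replicates included RPL4, RPL13, RPL27, RPLP1, RPS2, RPS27L, RPL17-C18orf32, RPS4Y1 and RPS4Y2. RPS4Y1 and RPS4Y2 lie on the Y chromosome, and whether these cells carry that chromosome was not examined here. Fragments of RPL4, RPS2 and RPL17-C18orf32 were listed in the merged calls.

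Many RP promoter fragments also held the start of another gene, and contacts of such a fragment cannot be assigned to either gene. This was so for 35 of 85 fragments (41.2%), against 18.5% of all protein-coding promoter fragments with starts of more than 1 gene. RP fragments had a median length of 8920 bp, from 1015 to 42021 bp, against 7032 bp for all protein-coding promoter fragments. The genes themselves were short, with a median of 5652 bp against 27194 bp. A snoRNA gene lay inside 29 of the 90 genes (32.2%), against 2.10% of protein-coding genes, and the members held 59 such snoRNA genes.

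The 85 fragments had 930 contacts over the 3 replicates, with 882 partner fragments. Replicate 1 listed 511, replicate 2 listed 493 and replicate 3 listed 518. The mean per fragment was 6.01, 5.80 and 6.09 in the 3 replicates, and 6.67, 6.51 and 6.57 for all protein-coding promoter fragments. Each replicate's mean was therefore lower for RP genes. The medians were not lower, at 3, 3 and 4 for RP fragments and 3 in each replicate for all protein-coding promoter fragments. The difference in means was -0.62 ± 0.12 contacts per fragment (SD, n = 3; exact sign-flip permutation test, two-sided p = 0.25). That value is the smallest 3 replicates can give, so no comparison between lists here can reach 0.05. Over the union of replicates, the median was 6 contacts per RP fragment and 7 per protein-coding promoter fragment. The ranking of the 85 fragments recurred between replicates, with Spearman's rho of 0.873, 0.845 and 0.818 for the 3 pairs of replicates, a description over fragments that share libraries.

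A few fragments carried a large part of the contacts. The fragment shared by RPL22 and RNF207 had 76 contacts, with 33, 41 and 42 in the 3 replicates. RPL22 is a large subunit protein, and RNF207 encodes a RING finger protein linked to the QT interval. The RPL28 fragment, shared with TMEM238, had 47 contacts, with 32, 30 and 34 in the replicates. A fragment of RPL30 had 44, with 33, 29 and 28. The RPS27 fragment, shared with RAB13, had 38, with 25, 34 and 30. These 4 fragments held 22.04% of the contacts and 34.6% of those called in all 3 replicates, and the 15 fragments with most contacts held 50.5%.

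**Figure D1:**
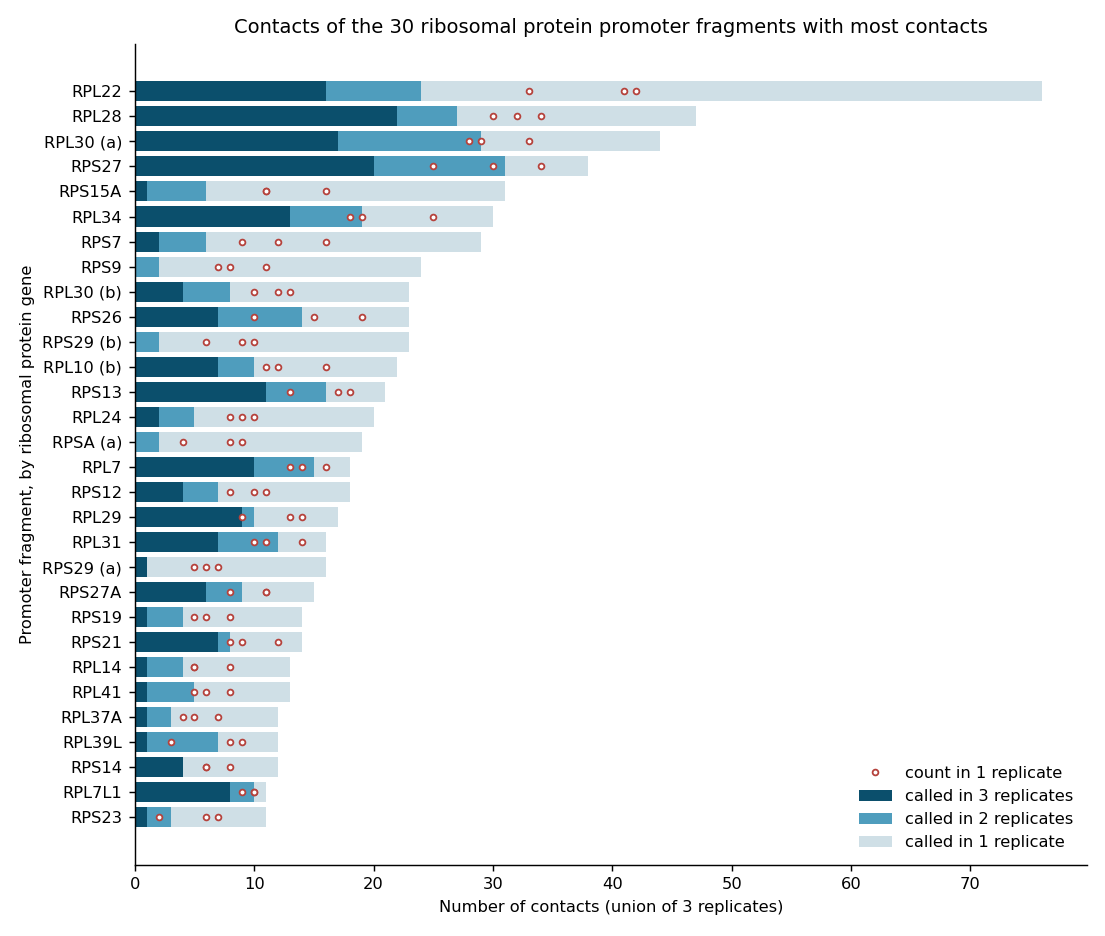
Number of contacts (horizontal axis) of the 30 ribosomal protein promoter fragments with most contacts (vertical axis), with bars split by the number of replicates that called each contact and open circles for the count in each replicate; letters a and b order 2 fragments of a gene by position. RPL22 leads with 76 contacts, of which 52 were called in 1 replicate, while RPL28 and RPS27 have more contacts called in 3 replicates (22 and 20).

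The remaining fragments among the 15 with most contacts differed in how often the contacts recurred. RPL34 had 30 contacts with 13 in all 3 replicates, and RPS13 had 21 with 11. RPS26 had 23 with 7, and the second fragment of RPL30 had 23 with 4. Fragments of RPS15A (31 contacts), RPS7 (29) and RPL24 (20) had 1, 2 and 2 contacts in all 3 replicates. RPS9 (24), a fragment of RPS29 that it shares with LRR1 (23) and a fragment of RPSA (19) had none. Such counts therefore rank fragments differently depending on whether recurrence is required. At the other end, 7 of 85 fragments (8.24%) had a single contact, beside 9.09% of protein-coding promoter fragments. Among the 7 were those of RPL11, RPL13A, RPL35A and RPL36 and a fragment of RPL10. None of these 7 contacts was called in more than 1 replicate.

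All 3 replicates listed 217 of the 930 contacts, exactly 2 replicates listed 158, and a single replicate listed 555. The share in all 3 was 23.3% (95% Wilson interval 20.7 to 26.2%, counting error only), beside 25.2% of contacts seen from protein-coding promoter fragments. At least 1 contact in all 3 replicates was found for 52 of 85 fragments (61.2%), beside 54.7% of protein-coding promoter fragments. The share in all 3 replicates was 47.5% of 59 contacts up to 100 kb, 38.1% of 370 contacts from 100 to 500 kb, 23.3% of 133 from 500 to 1000 kb and 4.91% of 346 beyond. The calls on merged replicates held 482 of the 930 contacts. On another chromosome, 22 contacts (2.37%) were found, against 3.57% for all protein-coding promoter fragments, and none of the 22 was called in all 3 replicates.

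In every replicate, a larger share of contacts joined another promoter fragment for RP promoters than for protein-coding promoters as a whole. The share of contacts with a promoter fragment was 28.4%, 27.6% and 24.7% in the 3 replicates, against 19.4%, 19.4% and 19.6%, and the values did not overlap. The difference was 7.42 ± 2.04 percentage points (SD, n = 3; exact sign-flip permutation test, two-sided p = 0.25). Over the union, 240 of 930 contacts (25.8%) joined a promoter fragment, against 18.8%. A promoter partner was found for 68 of the 85 fragments (80.0%), beside 69.9% of protein-coding promoter fragments.

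Part of this difference moved with other starts on the fragment and with the order in which the files list contacts. Among fragments without another protein-coding start, the union shares were 20.4% for RP and 17.7% for protein-coding promoters. With only the contacts in which the member was listed first, they were 13.9% and 10.4%. Some fragments were listed first almost only against promoters. Of 31 RP fragments with 10 or more contacts listed first, 3 had promoter partners in at least 50% of them, beside 8.25% of 4786 protein-coding promoter fragments. The 3 were the fragments of RPL10 (shared with DNASE1L1; 21 of 22 contacts), RPS27A (shared with CLHC1; 14 of 15) and RPS20, whereas the median share was 5.56%. Without such fragments in either list, the shares were 24.5%, 23.9% and 21.1% for RP and 17.0%, 16.6% and 16.9% for all protein-coding promoters. Whether those fragments were baited was not tested.

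Contacts of the RP promoters as a whole list were also shorter in every replicate, although those of small subunit genes alone were not. Median distance in the 3 replicates was 359, 350 and 380 kb, against 484, 492 and 516 kb for all protein-coding promoters, a difference of -134 ± 8.82 kb (SD, n = 3; exact sign-flip permutation test, two-sided p = 0.25). Over the union of replicates, the median over all RP contacts was 539 kb, against 625 kb for all protein-coding promoters. Without the 4 RP fragments with most contacts, the RP median was 603 kb, so much of the union difference lay with these fragments. RP contacts with promoters lay at a median of 425 kb and other RP contacts at 589.6 kb. Of union contacts with promoters, 26.3% were called in all 3 replicates, and of other contacts 22.3%.

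The comparison lists separated cytosolic from mitochondrial RP genes, which encode the proteins of the ribosome inside mitochondria. The 69 promoter fragments of mitochondrial RP genes had promoter shares of 20.8%, 20.2% and 21.7% in the replicates, all below the cytosolic values, and median distances of 635, 699 and 644 kb, all above them. The distances differed by -297 ± 46.3 kb and the shares by 5.99 ± 2.56 points (cytosolic minus mitochondrial; SD, n = 3; exact sign-flip permutation test, two-sided p = 0.25 for each). The 46 promoter fragments of translation initiation and elongation factor genes had promoter shares of 34.7%, 27.2% and 28.8%, which overlapped those of RP genes (exact sign-flip permutation test, two-sided p = 0.50). Their share of contacts in all 3 replicates was lower, 16.2% over the union against 23.3%.

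**Figure D2:**
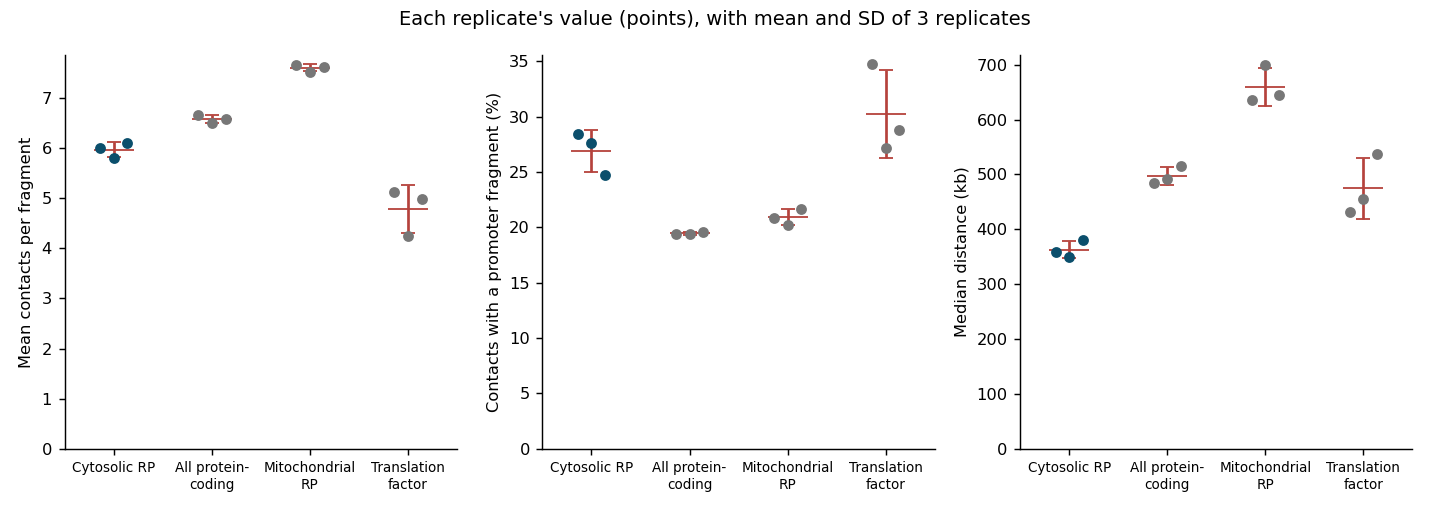
Mean contacts per fragment, share of contacts with a promoter fragment (%) and median contact distance (kb) in each of 3 replicates (points) for 4 gene lists, with red bars for the mean and SD. Cytosolic RP promoters have shorter contacts (350 to 380 kb) than all protein-coding promoters (484 to 516 kb), and a larger promoter share (24.7 to 28.4% against 19.4 to 19.6%).

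Genes of the large and small subunit had similar mean numbers of contacts per fragment, with replicate means of 6.14 and 6.15. The medians differed in every replicate, at 3, 2 and 2 for large subunit fragments and 6, 5 and 4 for small subunit fragments. Contacts of large subunit promoters recurred more often. Over the union, 124 of 466 (26.6%) were called in all 3 replicates, against 77 of 405 (19.0%) for the small subunit. As a share of the contacts of a replicate, the means were 47.0% and 36.8%. These replicate shares divide the same 124 or 77 contacts by each replicate's count. They are therefore not separate observations, and a test over replicates does not apply. Single genes held many of the recurrent contacts. Among the 124, RPL28 had 22, RPL30 had 21 and RPL22 had 16, and among the 77, RPS27 had 20 and RPS13 had 11. Over the union, 67.6% of large subunit contacts and 50.4% of small subunit contacts lay within 1 Mb. The part of distance in the recurrence difference was not tested. The median distance was 328, 321 and 384 kb in the replicates for large subunit promoters, below all protein-coding promoters in each. For small subunit promoters it was 552, 461 and 541 kb, above all protein-coding promoters in replicates 1 and 3 and below them in replicate 2. The mean promoter share was 23.1% against 31.3%.

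Partner fragments of RP promoters mostly lay in other genes. Of the 930 contacts, 733 (78.8%) had a partner that overlapped another protein-coding gene, against 57.6% for all protein-coding promoters. The gene on the promoter fragment itself was the partner in 6 (0.645%, against 5.06%). The part of gene length in this difference was not tested. A lncRNA gene alone was overlapped in 6.88%, against 11.5%, and none of these in 13.7%, against 25.8%. Gene density around the promoters was not compared.

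**Figure D3:**
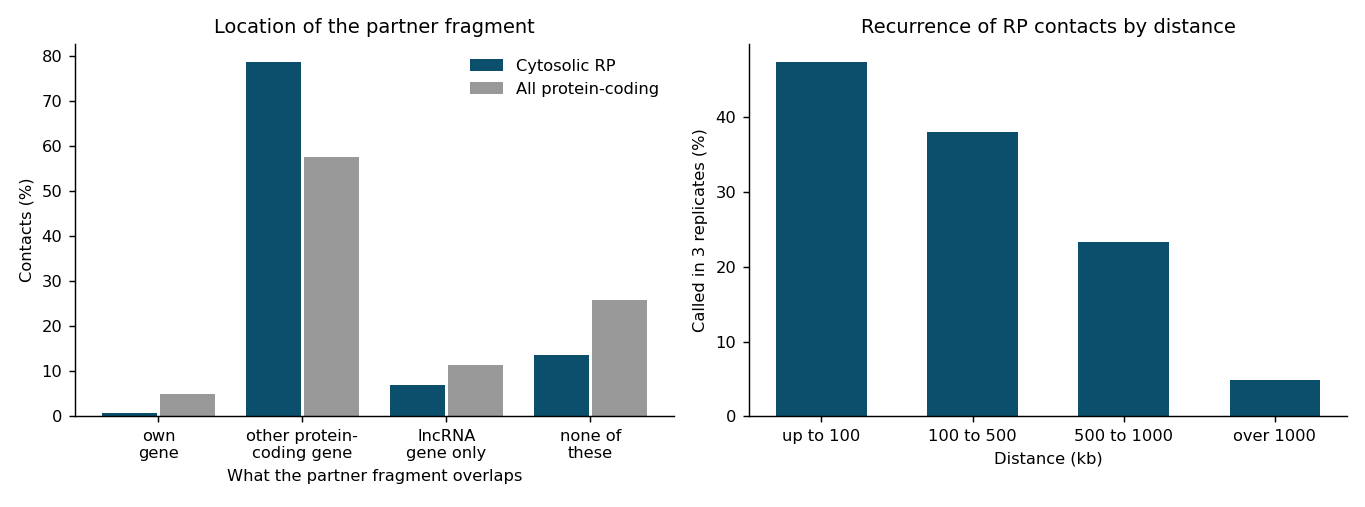
Left, share of contacts (%) by what the partner fragment overlaps, for cytosolic RP promoters and all protein-coding promoters; right, share of RP contacts called in 3 replicates (%) by distance class (kb). Other protein-coding genes hold 78.8% of RP partners against 57.6%, and recurrence is 47.5% up to 100 kb and 4.91% beyond 1000 kb.

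The contacts in all 3 replicates often formed blocks of neighbouring fragments, joined here where gaps were at most 50 kb. RPL28 had all 22 of its recurrent contacts in a single block of 237 kb on chromosome 19 (55622797 to 55860244), with mean scores from 5.60 to 11.6. That block overlaps TNNI3 and TNNT1, which encode troponin subunits of striated muscle, the kinase gene BRSK1 and the synaptotagmin gene SYT5. RPS27 had 16 recurrent contacts in a block of 160 kb on chromosome 1 (153636395 to 153796570) over GATAD2B, INTS3, ILF2, SLC27A3 and NPR1, the last a receptor for natriuretic peptides. The first RPL30 fragment had 15 in a block of 204 kb over MATN2, LAPTM4B and MTDH. In each case the block lay on a single side of the promoter.

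Other fragments had fewer recurrent contacts in a block. RPL34 had 10 recurrent contacts in 40.2 kb over HADH and LEF1, centred 586 kb away, and 3 more in a block 787 kb away on the other side. HADH encodes a mitochondrial enzyme of fatty acid oxidation, and LEF1 a transcription factor of WNT signalling. The fragment that RPL7 shares with RDH10 had 10 within STAU2, 206 kb away. RPS13 had 9 in PLEKHA7, 282 kb away. RPL31 had 6 in a block of 45.7 kb that overlaps no protein-coding gene, 382 kb away. RPS12 had 4 near EYA4, a transcription cofactor gene, at 725 kb.

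**Figure D4:**
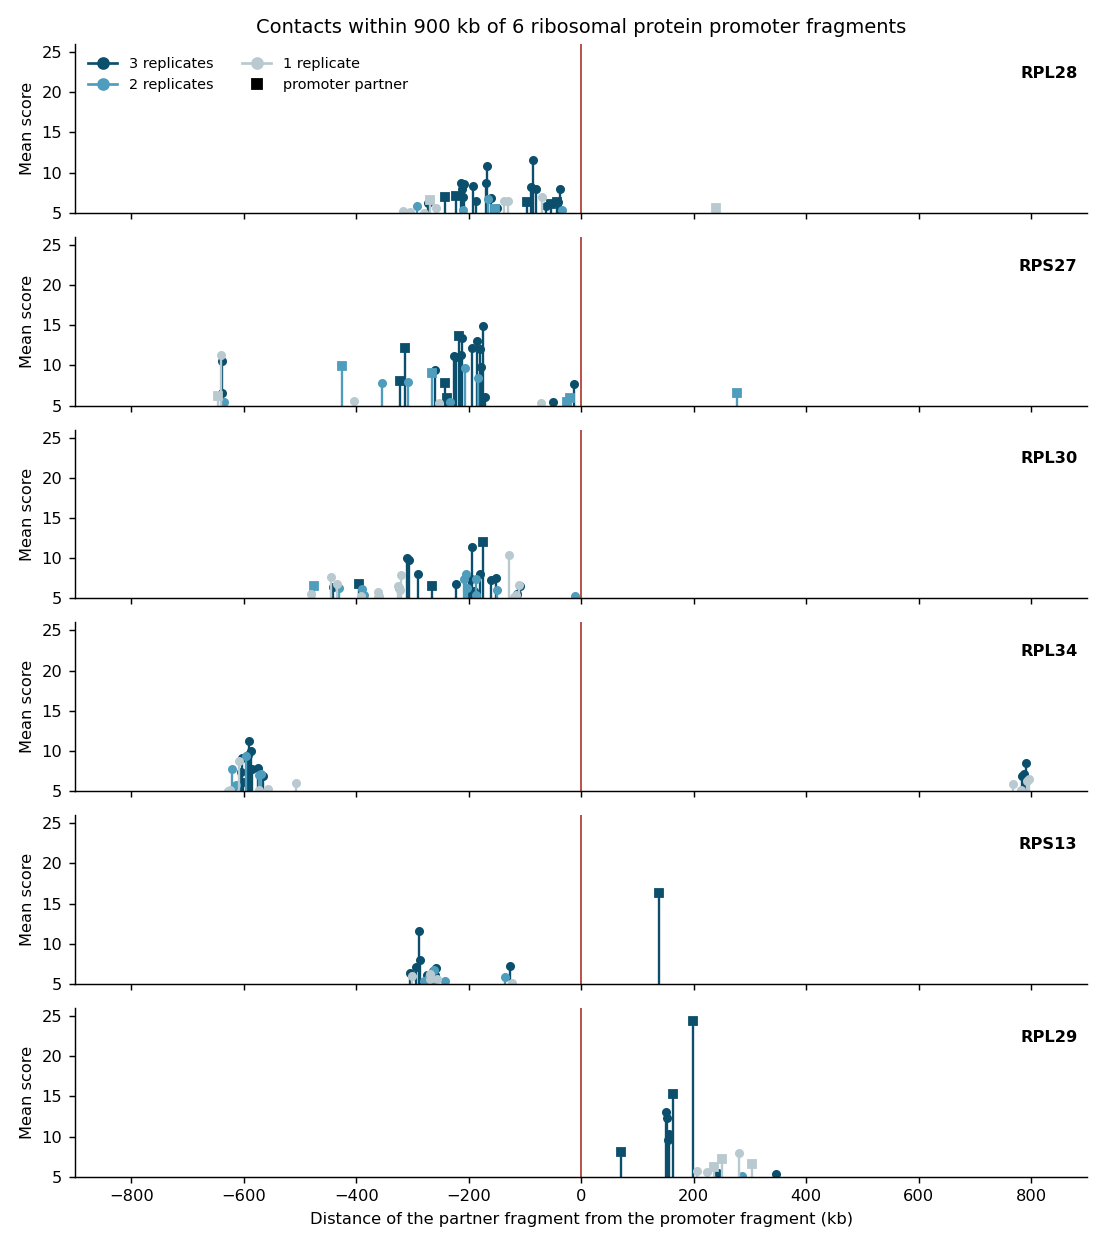
Mean CHiCAGO score of contacts (vertical axis, from the lowest listed score of 5) against the distance of the partner from the promoter fragment (kb, negative toward lower coordinates) for 6 RP promoter fragments, coloured by the number of replicates that called them, with squares for promoter partners; for RPL30 the fragment with more contacts is drawn. The recurrent contacts of RPL28, RPS27 and RPL30 lie on a single side, RPL28 and RPS27 each have a contact called in fewer replicates on the other, and RPL34 has blocks at 586 and 787 kb on opposite sides.

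Some promoters spread contacts over many fragments of a single distant gene, most of them called in 1 replicate. RPS29 had 17 contacts with MDGA2, at 1905 to 2544 kb, of which 15 were called in 1 replicate and 1 in all 3. The replicates held 4, 8 and 8 of them. RPS7 had 15 with MYT1L, a neuronal transcription factor gene, at 1329 to 1811 kb, of which 11 were called in 1 replicate and 1 in all 3. RPS15A had 12 with XYLT1, of which 10 were called in 1 replicate and none in all 3. RPL22 had 6 with MEGF6 at a median of 2813 kb, none in replicate 1 and 3 in each of the others. By comparison, RPL29 had 5 contacts with POC1A, each of which every replicate called, and RPL7 had 14 with STAU2, of which every replicate called 10.

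The contact with the highest mean score joined RPL29 to the promoter of ALAS1, 199 kb away. ALAS1 encodes the enzyme of the first step of haem synthesis outside red cells. Its scores were 19.6, 28.4 and 25.1 (mean 24.4 ± 4.43, SD, n = 3). RPL29 also contacted the POC1A promoter, with scores of 17.7, 12.04 and 16.2.

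RPS27A, which encodes a fusion of ubiquitin and a small subunit protein, had 3 promoter partners among the 15 strongest recurrent contacts. These were EML6 (24.4, 22.6 and 15.3), ACYP2 (21.1, 13.5 and 18.9, at 1113 kb) and SPTBN1 (7.2, 20.2 and 18.9). The SPTBN1 scores had the widest spread of the 15, with an SD of 7.16 around a mean of 15.4. RPL10A contacted the promoter of PPARD, a nuclear receptor of fatty acid metabolism, with scores of 21.2, 19.0 and 12.4. RPS13 contacted the shared promoter fragment of NUCB2 and PIK3C2A with scores of 9.85, 21.3 and 17.8.

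The other strong contacts had no promoter partner. RPS12 contacted a pair of adjacent fragments 736 and 739 kb away, with scores of 20.3, 24.6 and 22.2 on the nearer and 15.1, 17.6 and 15.8 on the farther. RPL35 contacted a fragment 88.1 kb away with scores of 19.1, 23.4 and 19.3. RPL31 contacted a pair of adjacent fragments at 391 and 390 kb, with mean scores of 17.8 and 16.7. None of these 5 partners overlaps a protein-coding gene. The strongest recurrent contact of RPS27 lay in GATAD2B, with scores of 10.1, 16.7 and 17.7.

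**Figure D5:**
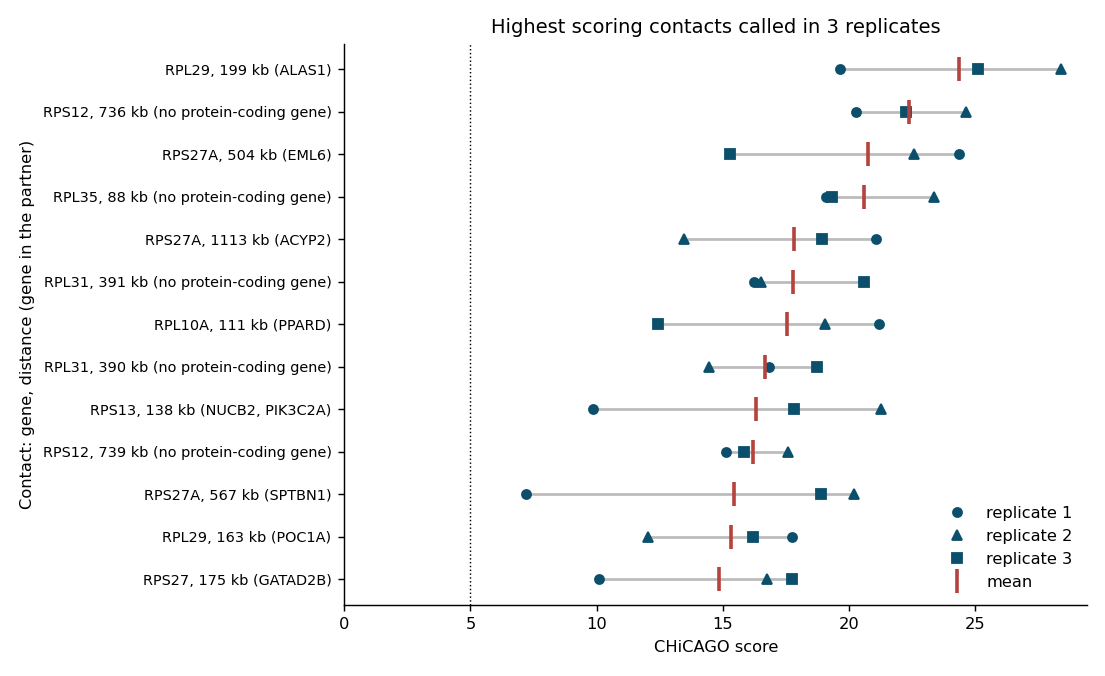
CHiCAGO score in each of 3 replicates (symbols) and their mean (red line) for 13 of the 15 contacts with the highest mean score among those called in 3 replicates (those of RPL10 are not drawn), named by RP gene, distance and gene in the partner; the dotted line is the lowest listed score of 5. Means run from 24.4 (RPL29 with ALAS1) to 14.9 (RPS27 with GATAD2B), and the SPTBN1 contact of RPS27A has the widest spread.

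No contact joined promoter fragments of 2 RP genes in any replicate. There were 21 pairs of RP fragments within 1 Mb of each other, of which 8 were of different genes, such as RPS26 with RPL41 (68.6 kb apart) and RPL18 with RPL13A (867 kb). None of the 21 was called, beside 6.72% of protein-coding promoter pairs within that distance. The rest of the 21 were fragments of a single gene. Of the 21, 16 lay within 50 kb, where 6.70% of protein-coding promoter pairs were called. With only 8 pairs of different genes, a difference was not detectable. Of the 21 pairs, 8 were directly adjacent fragments. The merged calls held 1 such contact, between RPL3 and RPS19BP1, at a score of 5.14 and 203 kb. The RP promoters reached 218 promoter fragments with starts of 240 protein-coding genes. Of these fragments, 1 belonged to a mitochondrial RP gene and none to a translation factor gene. Such fragments were 69 and 46 of the 19075 promoter fragments in all. Neither a lack nor an excess of contact can be read from such small counts.

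Several RP promoters were called with the same partner fragment, in separate pairs that do not show the promoters together. A partner fragment was shared by 2 or more RP fragments in 44 cases, including fragments of a single gene. Fragments of different genes shared a partner in 15 of these. Some of these genes lie within 1 Mb of each other, namely RPS26 with RPL41, RPS29 with RPL36AL and RPL3 with RPS19BP1. Others lie farther apart on 1 chromosome, namely RPL14 with RPSA, RPL36A with RPS4X, RPL18 with RPS9, and RPL28 with RPS9, RPS16 and RPS19. RPL22 with RPS21 and RPS27 with RPS4X lie on different chromosomes. Some of these contacts were called in 1 replicate only. RPL22 scored 5.29 in replicate 1 with the fragment it shares with RPS21. In replicate 3, RPL18 scored 5.54 with a fragment shared with RPS9, and RPL14 scored 9.71 with that shared with RPSA. How often promoters of other gene lists share partners was not counted.

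RP genes have many processed pseudogenes, copies that share sequence with their parent genes. Misplacement of reads between them was not tested. A partner that held an RP pseudogene was found in 7 contacts (0.753%, against 0.361% for all protein-coding promoters). The pseudogene was that of the same gene in 2 of them, RPS15 with RPS15P9 (5.24 and 5.26 in replicates 1 and 3) and RPSA with RPSAP53 on chromosome 13 (12.4 in replicate 1). The recurrent ones joined both RPL30 fragments to a fragment within MATN2 that holds RPS23P1, with scores of 14.9, 10.7 and 10.3 for the fragment with more contacts and 5.18, 10.49 and 5.91 for the other.

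Among genes with variants known in Diamond-Blackfan anaemia, 16 of 18 had a promoter fragment, beside 77.0% of protein-coding genes. Of the 16 genes, 11 had a contact in all 3 replicates on any of their fragments. The share of 54.7% for protein-coding promoters counts fragments and not genes, so it is not a like measure. Contact totals of the 16 genes ran from 1 (RPL11 and RPL35A) to 39 (RPS29). RPS19, the gene most often affected, had 14 contacts, with 8, 6 and 5 in the replicates. Its recurrent contact, with the promoter fragment of ARHGEF1 and ERFL 66.2 kb away, scored 9.56, 5.24 and 8.19. RPL5 and RPL11 bind the 5S ribosomal RNA and can hold back the p53 inhibitor MDM2. RPL5 had 10 contacts on 2 fragments, and both fragments contacted the same fragment in RPAP2, with scores of 11.05, 9.0 and 8.0 on the first and 7.84, 7.26 and 6.38 on the second. RPL11 had a single contact, on chromosome 9, with a score of 7.22 in replicate 2.

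The stalk proteins RPLP0, RPLP1 and RPLP2, which recruit translation factors to the large subunit, had no contact in all 3 replicates. RPLP0 had 9 on 2 fragments, RPLP2 had 2 at over 63 Mb, called in 1 replicate each, and RPLP1 had no listed fragment. The RPLP2 fragment did not hold the canonical start of that gene. RPL3L replaces RPL3 in heart and skeletal muscle, and its fragment, shared with MSRB1, had 3 contacts. The nearest, 89.6 kb away, scored 5.03 and 6.78 in replicates 2 and 3 and was not listed in replicate 1, and the other 2 were called in replicate 3. RPL3 itself had 7 contacts on 2 fragments, with 2 in all 3 replicates. Fragments of genes that hold a snoRNA gene had a median of 5 contacts (32 fragments), against 9 for the other 53.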

How the data were processed

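The data were the authors' deposited contact calls, 1 set for each of the 3 hESC-CM replicates and 1 made on all reads merged. The authors mapped reads with HiCUP and scored contacts with CHiCAGO. Each deposited score (5 or more, 2 decimals) belongs to a pair of HindIII fragments of GRCh37, the build named in the submitters' processing notes. Read depth per replicate was not analysed here. A contact that scored below 5 cannot be told from an absent one.

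HindIII sites were located in GRCh37, and 127138 of 127139 listed fragments ended at such sites. Contacts were counted as seen from each member fragment, in either column, over the union of replicates, so a contact between fragments of the same list counts from each end. Distances are between midpoints, and each mean score is over the replicates that called the contact. Members and lists were chosen with earlier results of these data known. Named were the 15 fragments with most contacts, the fragments with fewest, the 15 recurrent contacts with the highest mean score, recurrent pseudogene contacts, and the fixed genes RPS19, RPL5, RPL11, RPL3L and the stalk genes. Recurrent blocks and partner genes were chosen after their values were seen. Replicate differences were tested by exact sign flips. Some named members and partners are not reported here. The counting was tested on simulated data. Python 3.11.15 with numpy 2.4.6, scipy 1.17.1 and matplotlib 3.10.9 was used. Alternatives were the score threshold, each replicate left out, merged calls, order of fragments, near matches, distance and definitions of members.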

Additional observations from a re-analysis of the deposited data

How the results depend on the processing

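The promoter share stayed higher and the median distance shorter for RP genes than for all protein-coding promoters under every alternative run. Number of contacts, mean and median per fragment, median distance and promoter share were 384, 4.52, 2, 483 kb and 29.7% at a score of at least 7, and 129, 1.52, 1, 392 kb and 33.3% at a score of at least 10. That median of 1 was above the 0 of all protein-coding promoters, the opposite order. Within 1 Mb on the same chromosome, there were 562 contacts, with a mean of 6.61, a median of 4 against 3, a distance of 275 kb and a promoter share of 27.8%, and the share in all 3 replicates was 35.6% against 34.5%, both in the opposite order to the whole set. Leaving out each replicate gave means of 8.62 to 8.92 and distances of 433 to 488 kb. The median was then 5, the same as for all protein-coding promoters. Shares called in both remaining replicates were 35.8 to 36.97%. Merged calls gave a mean of 7.49, a median of 4, a distance of 261 kb, a promoter share of 21.4% and 1 contact between RP promoters. Without contacts of promoter pairs, the mean was 8.12, the median 4 and the distance 589.6 kb. Core RP genes alone gave a mean of 11.3 and a distance of 567 kb, and the most upstream starts alone gave 11.4, a median of 7 and 589.6 kb. Fragments without another protein-coding start had 540 contacts, a median of 7, a distance of 573 kb, 22.04% in all 3 replicates and a promoter share of 20.4%. Partners matched within 5 kb gave 41.3% in all 3 replicates, against 48.8% for all protein-coding promoters. Settings chosen after seeing the data gave a mean of 8.95, a distance of 603 kb and 19.6% in all 3 replicates without the 4 fragments with most contacts, a mean of 10.8, a distance of 566 kb and a promoter share of 22.5% without fragments whose partners were mostly promoters, and a promoter share of 13.9% with the member listed first. The causes of these shifts were not tested. No paired analysis was possible because the 3 replicates form a single group, and only gene lists were compared within each replicate. Contacts that score below 5 are not listed, which limits what recurrence between replicates can show.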
